A study of Mus musculus with 18 samples.

Results

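Collagen chains are the products of the genes whose symbols follow the pattern Col, a type number, the letter a and a chain number. They were taken by that pattern from the platform annotation of the Affymetrix Mouse430_2 array. Only probe sets annotated with that single gene were taken, and where a gene had several, the one brightest on average across all 18 arrays stood for it. The rule found 42 chains among 18191 genes: 11 fibrillar chains, 6 basement membrane chains of type IV collagen and 25 other chains. Motoneurons from spinal cords of E12.5 mouse embryos, freed of dorsal root ganglia and meninges and enriched by panning for the p75 receptor, had been grown for 7 days in microfluidic chambers that keep axons apart from cell bodies. BDNF (20 ng/ml) was present on the axonal side only, CNTF (5 ng/ml) on both sides, and the surface carried polyornithine and laminin-111. Each compartment, somatodendritic (cell bodies with dendrites) and axonal, had 3 arrays of cultures with a lentiviral short hairpin RNA against Smn, 3 with an empty lentiviral vector and 3 of untreated wild-type cultures. Smn encodes the survival motor neuron protein, and loss of its human counterpart SMN1 causes spinal muscular atrophy. The culture is an acute knockdown in enriched cells, not a mutant animal, and nothing in the labels tells whether replicate arrays stem from independent cultures, so p-values measure only the spread between arrays, which may be technical. Control arrays and knockdown arrays carry different numbering in their titles, and no label says whether they were handled apart.

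Collagens are proteins of the extracellular matrix in which chains wind into triple helices. Fibrillar chains (types I, II, III, V, XI, XXIV and XXVII) form the fibrils of connective tissue, and types V and XI start and regulate such fibrils. Type IV chains form the sheet-like network of basement membranes. Of the remaining chains, FACIT (fibril-associated) collagens sit on the surface of fibrils, multiplexins carry heparan sulfate or chondroitin sulfate chains, type VIII forms short-chain networks, type VI forms beaded filaments, and several types span the plasma membrane. In the nervous system most collagen is made by meninges, vessels and Schwann cells, while glia and some neurons make particular chains.

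The deposited values are log2 expression levels, and every level given here is on that scale. For background, 154 probe sets of odorant, vomeronasal and taste receptors, hair keratin-associated proteins, protamines and beta-defensins were read on each array, and their 95th percentile was the limit. A chain had to exceed this limit on all 3 arrays of a group to be called above background there. Background lay at 6.35 to 6.54 on the somatodendritic arrays. On the axonal arrays it was 7.26 to 7.71 in Smn knockdown, 6.82 to 7.27 in empty vector and 6.67 to 6.77 in wild-type cultures. Arrays of a somatodendritic group correlated at 0.994 to 0.997 across genes, and those of an axonal group at 0.744 to 0.795 in Smn knockdown, 0.782 to 0.882 in empty vector and 0.84 to 0.902 in wild-type cultures. Smn1 had 1 probe set, which stayed below background on all arrays except axonal empty vector replicate 1 (7.01), so it could not check the knockdown. It averaged 5.06 ± 0.12 in somatodendritic Smn knockdown and 5.20 ± 0.18 in empty vector arrays (SD, n = 3 each; limma adjusted p = 0.412), and the group names are those of the labels. Of 12 motoneuron markers, the neurofilament genes Nefl, Nefm and Nefh and peripherin (Prph) were above background in all 3 somatodendritic groups. Chat, Slc18a3, Slc5a7 and Mnx1, which define cholinergic motoneurons, lay below background on every array. All 10 astrocyte and radial glia markers were above background in the somatodendritic empty vector and wild-type arrays.

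In the somatodendritic compartment 13 of 42 chains (31%) were above background in Smn knockdown, 16 (38.1%) in empty vector and 16 (38.1%) in wild-type cultures. Over all genes these shares were 53.9%, 53.3% and 53.5%. In the axonal compartment 7 chains (16.7%) passed in Smn knockdown, 6 (14.3%) in empty vector and 9 (21.4%) in wild-type cultures, against 18.1%, 26.7% and 36.5% of all genes. By the probe set that stands for each gene, 21 chains passed in at least 1 group, and Col16a1 and Col18a1 in all 6. Other probe sets passed where these did not for Col25a1 (in the 3 axonal groups) and for Col9a1, Col14a1 and Col22a1 (in somatodendritic wild-type arrays). The 11 chains Col5a1, Col5a2, Col27a1, Col4a1, Col4a2, Col4a5, Col16a1, Col18a1, Col19a1, Col25a1 and Col6a1 passed in all 3 somatodendritic groups. The count depends on the background chosen: with the 90th percentile 27 chains passed in each somatodendritic group, and with the 99th percentile 6 passed in somatodendritic Smn knockdown and 10 in wild-type arrays.

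**Figure D1:**
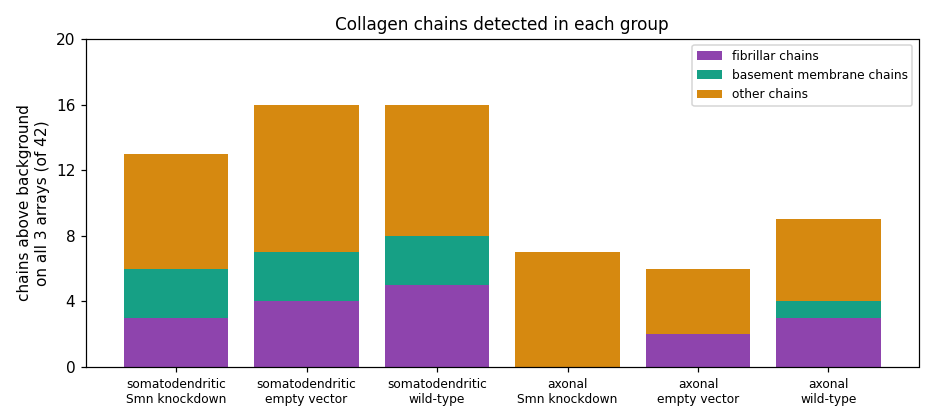
Number of collagen chains above background on all 3 arrays of each group, out of 42, with fibrillar, basement membrane and other chains stacked. The somatodendritic bars reach 13, 16 and 16 and the axonal bars 7, 6 and 9, and the axonal Smn knockdown bar holds no fibrillar and no basement membrane chain.

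In somatodendritic RNA 10 of 42 collagen chains (23.8%) were lower in Smn knockdown than in empty vector arrays at an adjusted p under 0.05, and 0 were higher. Of all genes 15.5% were called lower and 28% in either direction in that comparison, 2821 lower and 2267 higher (2311 lower and 2812 higher with the arrays centred on bright genes). The knockdown and empty vector arrays did not overlap for 13 chains, all lower, and for 0 higher, against 23.6% of all genes lower and 19.6% higher. The falls took in 4 of 11 fibrillar chains (Col11a1, Col5a2, Col5a1, Col27a1), 1 of 6 basement membrane chains (Col4a5) and 5 of 25 others (Col8a1, Col18a1, Col23a1, Col26a1, Col9a3). They were uneven in size, with Col8a1, Col11a1, Col5a2, Col4a5 and Col18a1 more than 1 log2 unit lower and the other 5 between 0.33 and 0.61 lower. The median over all 42 chains was -0.11, against -0.02 over all genes. In 1 fit to all 18 arrays, whose spread also covers the axonal arrays, 0 of the 10 calls passed (0.566% of all genes), and without Smn knockdown replicate 1 there were 9 lower and 1 higher. In RNA of a mixed culture, fewer cells that make a chain and less RNA per cell cannot be told apart.

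**Figure D2:**
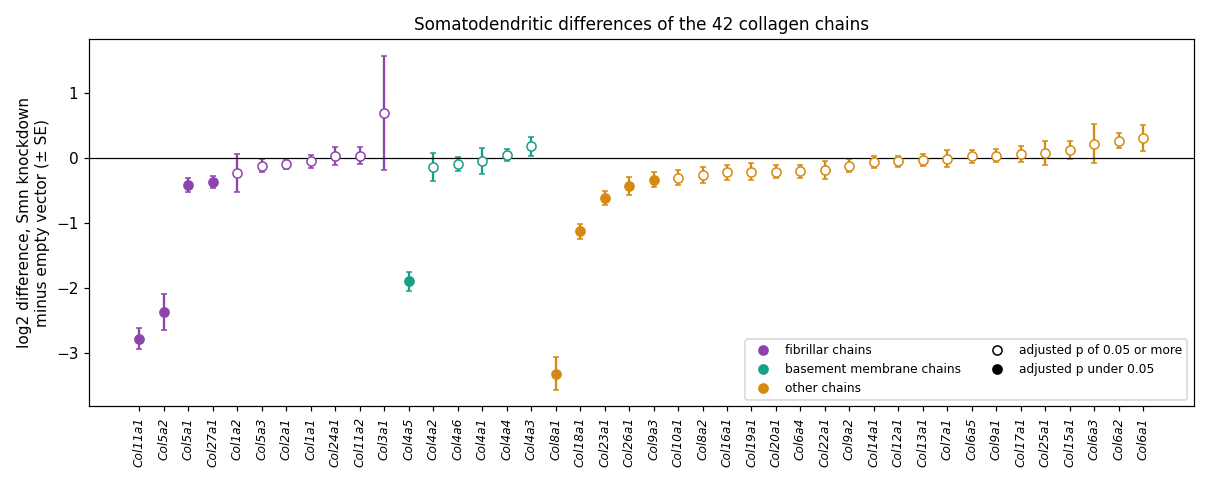
Log2 difference of each of the 42 collagen chains between somatodendritic Smn knockdown and empty vector arrays (points, ± limma's SE), ordered within the fibrillar, basement membrane and other chains. Filled points passed an adjusted p of 0.05: 10 chains, all below 0, from Col8a1 at -3.32 to Col9a3 at -0.33.

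Col11a1, the main chain of type XI collagen, had levels of 5.75, 5.76 and 6.24 in Smn knockdown arrays, against 8.49, 9.05 and 8.54 in empty vector arrays. The groups did not overlap, and all 3 knockdown values lay below background. The level was at least 4.89-fold lower (log2 difference -2.78 ± 0.16 (SE), adjusted p = 1.36e-07). Col5a2, which encodes the alpha-2 chain of type V collagen, had 7.33, 7.24 and 7.77 in Smn knockdown arrays, against 9.54, 10.23 and 9.69 in empty vector arrays. It stayed above background in both groups and was 5.18-fold lower with the knockdown (-2.37 ± 0.28, adjusted p = 6.29e-05). Its partner chain Col5a1 had 7.06, 7.43 and 7.38 in Smn knockdown arrays, against 7.62, 7.77 and 7.72 in empty vector arrays. The groups again did not overlap, but the fall was only 1.33-fold (adjusted p = 0.0114), and without Smn knockdown replicate 1 its adjusted p was 0.0504. Col27a1, a fibrillar chain made in cartilage, had 6.78, 6.70 and 6.76 in Smn knockdown arrays, against 7.05, 7.07 and 7.22 in empty vector arrays, 1.29-fold lower (adjusted p = 0.00908).

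The chains of the most abundant collagens of connective tissue, types I and III, gave no call against empty vector. Col1a1 lay below background on all 9 somatodendritic arrays. Col1a2 had levels of 5.93, 6.34 and 6.98 in Smn knockdown arrays, against 6.17, 6.82 and 6.94 in empty vector arrays, with overlap and no call (adjusted p = 0.641). Col3a1 had 6.71, 6.10 and 8.21 in Smn knockdown arrays, against 5.31, 6.01 and 7.60 in empty vector arrays. Its arrays differed within a group by up to 2.28 log2 units, and the difference between groups (0.70 ± 0.88, adjusted p = 0.617) was smaller than its error.

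Of the type IV chains 1 was called lower. Col4a5, a chain of a minor type IV network whose human counterpart is mutated in Alport syndrome, had levels of 6.84, 6.82 and 7.37 in Smn knockdown arrays, against 8.77, 9.09 and 8.86 in empty vector arrays. The groups were far apart, with a 3.73-fold lower level in the knockdown (-1.90 ± 0.15, adjusted p = 2.15e-06). Col4a1, which with Col4a2 makes the network found in nearly all basement membranes, had 7.84, 7.71 and 8.15 in Smn knockdown arrays, against 7.85, 7.90 and 8.10 in empty vector arrays. Col4a2 had 6.70, 6.65 and 6.80 in Smn knockdown arrays, against 7.00, 6.50 and 7.07 in empty vector arrays. Both chains overlapped between the groups, with differences of -0.05 ± 0.20 (adjusted p = 0.887) and -0.14 ± 0.22 (adjusted p = 0.689). Col4a3, Col4a4 and Col4a6 were above background in none of the 6 groups.

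Of the remaining chains, Col8a1 changed most. It encodes a chain of type VIII collagen, a network-forming collagen of vessel walls and of Descemet's membrane in the eye. Its levels were 6.39, 6.58 and 6.09 in Smn knockdown arrays, at background, against 9.60, 10.17 and 9.26 in empty vector arrays. The fall was at least 9.20-fold (-3.32 ± 0.25, adjusted p = 1.32e-06). Col18a1, a basement membrane multiplexin whose C-terminal fragment is endostatin, had 6.80, 6.85 and 6.80 in Smn knockdown arrays, against 7.94, 8.10 and 7.80 in empty vector arrays. The knockdown arrays lay close together and 2.19-fold below the empty vector arrays (-1.13 ± 0.11, adjusted p = 1.17e-05). Col9a3, a FACIT chain, had 6.65, 6.29 and 6.43 in Smn knockdown arrays, against 6.66, 6.79 and 6.91 in empty vector arrays, at least 1.23-fold lower (adjusted p = 0.0407). Col23a1, a membrane-spanning chain, and Col26a1 were called lower (-0.61, adjusted p = 0.00158, and -0.43, adjusted p = 0.0363) although neither was above background in either group, so no fold is given. Col23a1 had 5.82, 5.74 and 6.05 in Smn knockdown arrays, against 6.53, 6.58 and 6.31 in empty vector arrays, and Col26a1 had 6.05, 5.79 and 5.68 in Smn knockdown arrays, against 6.53, 6.08 and 6.2 in empty vector arrays. The call of Col23a1 was lost with the mean over its probe sets, of which the 2 others differed by 0.03 and -0.17. The calls of Col9a3 and Col26a1 were each lost under 8 alternatives, among them centring the arrays on bright genes and leaving out Smn knockdown replicate 2.

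Col25a1, a membrane-spanning collagen made by neurons, had levels of 9.29, 9.40 and 9.65 in Smn knockdown arrays, against 9.41, 9.06 and 9.63 in empty vector arrays. The groups overlapped (0.08 ± 0.19, adjusted p = 0.821). The FACIT chains Col16a1 and Col19a1 had 6.84, 6.57 and 6.93, and 7.09, 7.02 and 7.21 in Smn knockdown arrays, against 6.88, 7.02 and 7.09, and 7.29, 7.48 and 7.18 in empty vector arrays. Neither difference passed (adjusted p = 0.164 and 0.300). Col6a1, a chain of beaded filaments, had 6.82, 6.86 and 7.34 in Smn knockdown arrays, against 6.53, 6.73 and 6.85 in empty vector arrays, with overlap (adjusted p = 0.314). Col6a3, of the same filaments, had 6.56, 6.65 and 6.94 in Smn knockdown arrays, against 6.30, 6.25 and 6.94 in empty vector arrays and 7.77, 7.43 and 6.34 in wild-type arrays. The FACIT chains Col14a1 and Col20a1 averaged 6.78 and 6.30 in Smn knockdown, against 6.84 and 6.51 in empty vector arrays. None of these 3 differences (0.22, -0.06 and -0.21) was called. A second Col14a1 probe set averaged 6.50 in Smn knockdown and 7.66 in empty vector arrays, a difference of -1.15, so the size of the Col14a1 difference depends on the probe set. By the probe set that stands for each gene, 18 chains were above background in no group and called nowhere, and they ranged from 3.09 to 10.23 over their 324 readings, 21 of which exceeded the background of their array. They were the fibrillar chains Col1a1, Col2a1, Col3a1, Col5a3, Col11a2 and Col24a1, the basement membrane chains Col4a3, Col4a4 and Col4a6, and Col6a2, Col6a4, Col6a5, Col8a2, Col9a1, Col10a1, Col12a1, Col15a1 and Col17a1. The other Col9a1 probe set averaged 5.96 in Smn knockdown, 6.72 in empty vector and 7.40 in wild-type arrays and was above background on 0, 2 and 3 of the 3 arrays.

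**Figure D3:**
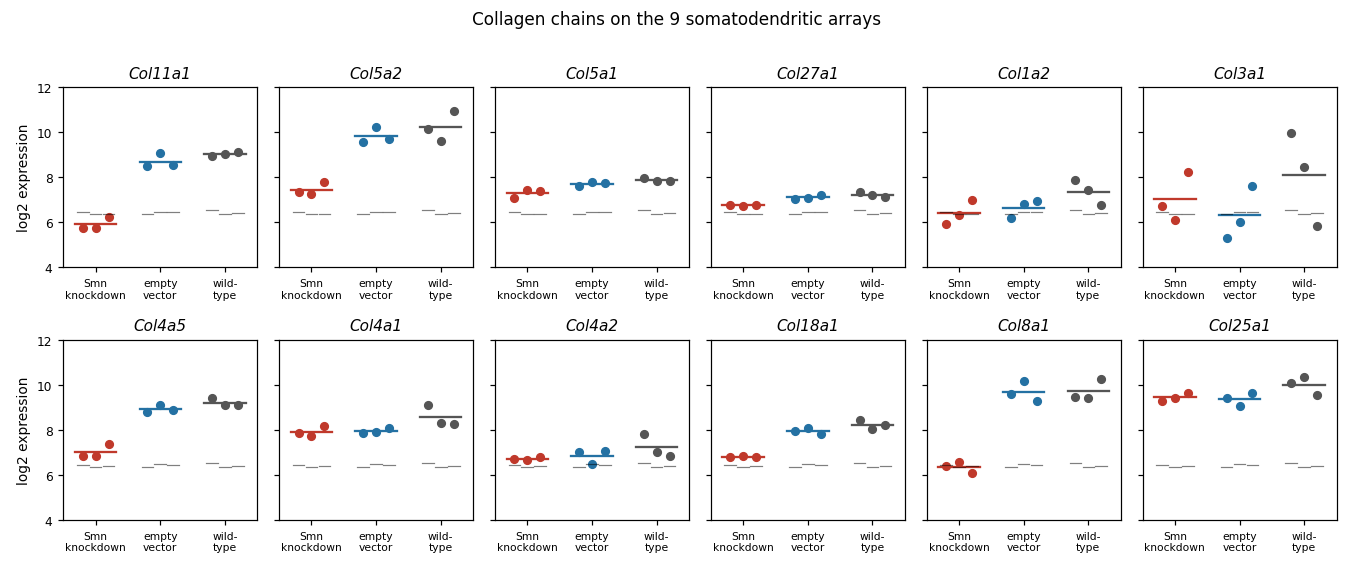
Log2 expression of 12 collagen chains on the 9 somatodendritic arrays, with Smn knockdown left, empty vector in the middle and wild-type right. Points are arrays, coloured bars group means and grey ticks the background level of each array. Col11a1 and Col8a1 drop to or below background in the knockdown, Col5a2, Col4a5 and Col18a1 stay above it at lower levels, and Col4a1, Col4a2 and Col25a1 overlap between knockdown and empty vector.

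Promoters are shown for the 3 chains most strongly lowered against empty vector that have a RefSeq window (Col8a1, Col11a1, Col4a5). For contrast, Col4a1 is shown, which was not called against empty vector. RefSeq windows of 300 bases, from 250 before to 50 after a gene's start (GRCm38.p6), were held for 33 of 42 chains. Not matched were Col1a1, Col2a1, Col4a3, Col5a2, Col9a3, Col12a1, Col14a1, Col22a1 and Col26a1. The windows lie at chr16:57754688-57754987 (Col8a1, minus strand), chr3:114030290-114030589 (Col11a1, plus), chrX:141475169-141475468 (Col4a5, plus) and chr8:11312777-11313076 (Col4a1, minus). Each is written 5′ to 3′ along its gene, and capitals mark the GC box GGGCGG, the promoter element CCAAT, the TATA element TATAAA and the AP-1 site TGANTCA on either strand.
Col8a1: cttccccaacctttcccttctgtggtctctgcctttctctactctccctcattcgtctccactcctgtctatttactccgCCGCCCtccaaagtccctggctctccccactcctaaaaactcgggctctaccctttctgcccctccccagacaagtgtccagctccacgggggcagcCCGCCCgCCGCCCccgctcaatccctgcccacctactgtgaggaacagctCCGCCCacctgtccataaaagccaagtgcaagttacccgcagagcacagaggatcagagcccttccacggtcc
Col11a1: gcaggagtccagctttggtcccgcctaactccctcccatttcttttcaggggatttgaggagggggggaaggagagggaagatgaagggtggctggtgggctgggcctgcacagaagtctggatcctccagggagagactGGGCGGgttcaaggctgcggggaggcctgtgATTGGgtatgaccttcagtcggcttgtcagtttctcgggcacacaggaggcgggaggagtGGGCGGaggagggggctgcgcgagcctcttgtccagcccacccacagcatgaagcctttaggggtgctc
Col4a5: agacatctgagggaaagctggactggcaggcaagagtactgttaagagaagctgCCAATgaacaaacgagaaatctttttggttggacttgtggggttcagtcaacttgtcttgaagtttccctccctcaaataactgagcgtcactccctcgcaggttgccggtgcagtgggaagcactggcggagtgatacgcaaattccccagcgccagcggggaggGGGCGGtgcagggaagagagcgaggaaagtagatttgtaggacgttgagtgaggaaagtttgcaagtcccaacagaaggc
Col4a1: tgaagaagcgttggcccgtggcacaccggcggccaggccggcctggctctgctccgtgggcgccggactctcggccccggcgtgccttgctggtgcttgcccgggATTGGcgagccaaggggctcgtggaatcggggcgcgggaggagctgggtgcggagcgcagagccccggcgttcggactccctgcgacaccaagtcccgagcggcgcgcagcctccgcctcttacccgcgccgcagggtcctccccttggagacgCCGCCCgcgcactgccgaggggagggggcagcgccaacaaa
No TATAAA and no TGANTCA occurred in these 4 windows. GGGCGG occurred 4 times in the Col8a1 window, 2 times in that of Col11a1 and once each in those of Col4a5 and Col4a1, and CCAAT once each in Col11a1, Col4a5 and Col4a1. Of all 32851 windows of this length 35.7% held GGGCGG, 37.4% CCAAT, 13.6% TATAAA and 7.81% TGANTCA, and of the 36 collagen windows 61.1%, 36.1%, 13.9% and 2.78%. The windows of Col4a1 and Col4a2 overlap by 78 bases on opposite strands, since these genes lie head to head. Col4a5 and Col4a6 are likewise neighbours on opposite strands of chromosome X, with windows that do not overlap.

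For the 5 chains that fell most, other probe sets also read lower in somatodendritic Smn knockdown, by less. The other Col5a2 probe set averaged 5.85 in Smn knockdown and 7.87 in empty vector arrays. For Col11a1 the other probe set averaged 4.58 in Smn knockdown and 5.95 in empty vector arrays, and for Col4a5 5.07 in Smn knockdown and 5.65 in empty vector arrays, all below background. The other Col18a1 probe set averaged 5.75 in Smn knockdown and 6.11 in empty vector arrays, also dim. For Col8a1 the 2 other probe sets were below background in both groups (5.20 in Smn knockdown against 5.64 in empty vector arrays, and 4.52 against 4.68), so the size of its fall rests on 1 probe set.

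Against wild-type arrays, which share the knockdown arrays with the comparison above, 16 of 42 chains (38.1%) were lower and 1 was higher in somatodendritic Smn knockdown. Of all genes 20.4% were called lower, 15.6% higher and 36% in either direction. The wild-type levels were 8.92, 9.03 and 9.10 for Col11a1, 10.14, 9.59 and 10.93 for Col5a2, 9.39, 9.12 and 9.08 for Col4a5, 9.47, 9.39 and 10.24 for Col8a1, and 8.42, 8.04 and 8.22 for Col18a1. Each wild-type array of these 5 chains lay above all knockdown arrays. The knockdown was at least 6.11-fold lower for Col11a1, 6.84-fold for Col5a2, 4.56-fold for Col4a5, at least 9.39-fold for Col8a1 and 2.66-fold for Col18a1 (limma adjusted p between 9.1e-08 and 1.45e-05). Chains called here but not against empty vector were Col4a1 (-0.67, adjusted p = 0.0182), Col1a2 (-0.94, adjusted p = 0.0292), Col19a1 (-0.58, adjusted p = 0.00475), Col25a1 (-0.53, adjusted p = 0.0474), Col16a1 (-0.31, adjusted p = 0.0447) and Col20a1 (-0.28, adjusted p = 0.0485). Except for Col19a1, each of these calls was lost when certain single arrays were left out. Whether the differences against the 2 controls differ was not tested. Col14a1, a FACIT chain, was the chain called higher (0.27, adjusted p = 0.0377), and its call was also lost without single arrays. The second Col14a1 probe set, above background on all 3 wild-type arrays, read the other way (-0.95, with means of 6.50 in Smn knockdown and 7.45 in wild-type arrays). The count of calls fell to 11 without wild-type replicate 1 and to 8 without Smn knockdown replicate 2, where 31.6% and 28.6% of all genes were called.

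Between somatodendritic empty vector and wild-type arrays 0 of 42 chains were called (lowest limma adjusted p = 0.100), against 2% of all genes. At an unadjusted p under 0.05 there were 1 higher and 6 lower, against 7.74% and 9.51% of all genes. Col4a1 had 7.85, 7.90 and 8.10 in empty vector arrays, against 9.12, 8.30 and 8.28 in wild-type arrays (adjusted p = 0.139). Wild-type replicate 1 was the highest of its group for 8 of 11 fibrillar and 5 of 6 basement membrane chains, and for 36.2% of all genes. Its Col3a1 level was 9.97, against 8.43 and 5.85 on the other wild-type arrays. Without wild-type replicate 3, 6 chains were called, 1 higher and 5 lower in empty vector arrays, against 7.74% of all genes in that setting.

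Markers of other cells also differed between somatodendritic Smn knockdown and empty vector arrays, where 28% of all genes were called and 15.5% were called lower. Of 8 oligodendrocyte lineage markers 6 fell and 0 rose, with list means of 7.55 to 8.25 in Smn knockdown, 8.60 to 9.18 in empty vector and, in wild-type arrays, 9.0 to 9.33. Pdgfra, the receptor that marks oligodendrocyte precursors and fibroblasts, had 8.21, 7.78 and 9.71 in Smn knockdown arrays, against 11.35, 10.40 and 11.88 in empty vector arrays. Of 10 astrocyte and radial glia markers 7 fell and 0 rose, with list means of 9.54 to 9.97 in Smn knockdown, 10.17 to 10.39 in empty vector and, in wild-type arrays, 10.22 to 10.34. Of 12 pericyte and smooth muscle markers Acta2 and Tagln fell and 0 rose, with list means of 5.85 to 6.01 in Smn knockdown, 6.37 to 6.48 in empty vector and, in wild-type arrays, 6.35 to 6.51. Acta2, smooth muscle actin, had 7.88, 6.74 and 6.73 in Smn knockdown arrays, against 11.56, 12.14 and 11.11 in empty vector arrays (22.3-fold lower, adjusted p = 1.4e-06). Pdgfrb, which defines pericytes, was below background on every array. Notch3 and Des, of the same list, were above background in all 3 somatodendritic groups. Neither was called against empty vector (-0.23, limma adjusted p = 0.135, and 0.01, adjusted p = 0.92), though Notch3 was called lower against wild-type arrays.

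Of 12 microglia and macrophage markers 11 rose and 0 fell, against 2267 of 18191 genes called higher and 2821 lower in this comparison. The list means were 8.13 to 8.54 in Smn knockdown, 5.94 to 6.23 in empty vector and, in wild-type arrays, 7.78 to 7.88. Of 13 fibroblast and meningeal markers Thy1 rose and Pdgfra fell, and 2 to 4 were above background on any somatodendritic array. The list averaged 5.51 to 5.73 in Smn knockdown, 5.62 to 5.89 in empty vector and, in wild-type arrays, 5.78 to 6.13, and Lum, a fibroblast proteoglycan, was below background on every array. Postn, of the same list, read 6.54, 6.22 and 6.61 in Smn knockdown, 5.83, 5.96 and 6.41 in empty vector and 7.45, 7.10 and 6.19 in wild-type arrays. It exceeded background on 2 arrays each of Smn knockdown and wild-type and on 0 of empty vector. Of 10 endothelial markers Kdr and Egfl7 fell, of 6 Schwann and neural crest markers Gap43 rose and Sox10 fell, and of 9 cartilage and sclerotome markers 0 were called and 0 were above background. Of 12 motoneuron markers Isl2 and Nefh rose and Nefl and Nefm fell. The Gapdh probe set at the 3′ end exceeded that at the 5′ end, a reading of RNA length, by 3.99 to 4.12 in Smn knockdown, 3.53 to 3.68 in empty vector and, in wild-type arrays, 3.11 to 3.61. The part of these cells and of RNA length in the collagen differences was not tested.

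**Figure D4:**
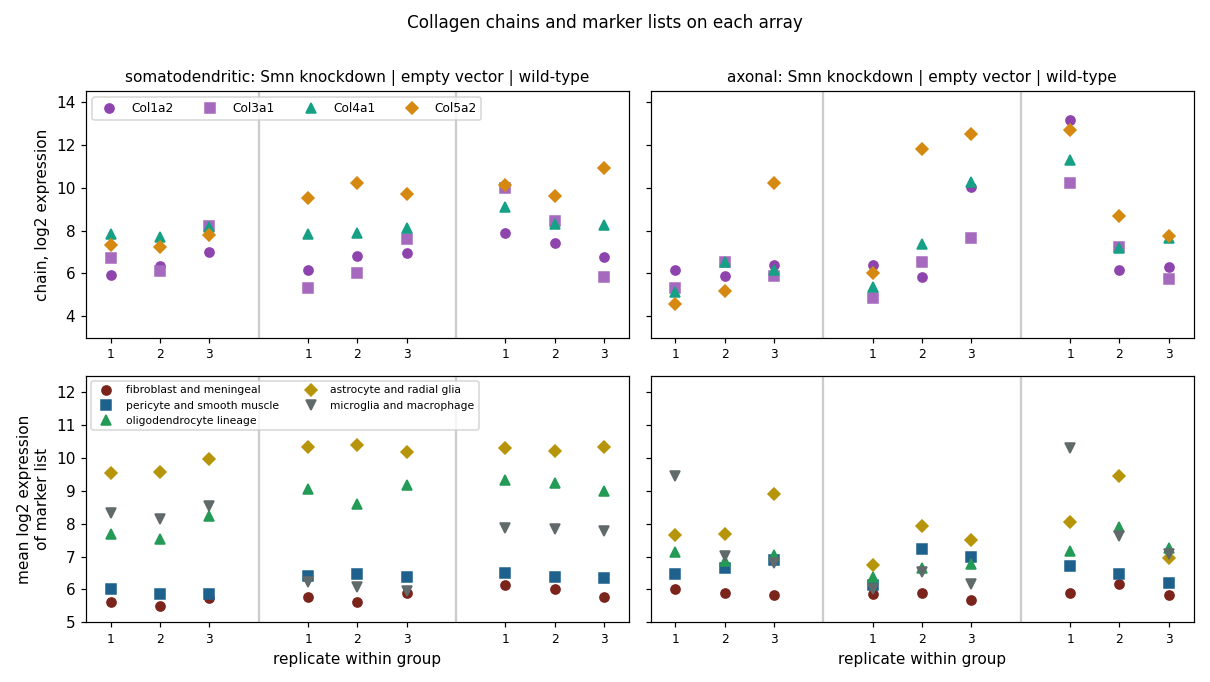
Upper panels show log2 expression of Col1a2, Col3a1, Col4a1 and Col5a2 on each array, lower panels the mean log2 expression of 5 marker lists, left somatodendritic and right axonal, with replicates 1 to 3 of Smn knockdown, empty vector and wild-type from left to right. Axonal wild-type replicate 1 and empty vector replicate 3 hold the high Col1a2 and Col4a1 readings. The mean of the fibroblast and meningeal list, most of whose markers lie below background, runs from 5.51 to 6.16 over the 18 arrays.

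Other genes of collagen biology were read from 7 lists in the same comparison, where 28% of all genes were called and 15.5% were called lower. The counts below are to be read beside these shares. Of 19 enzymes and chaperones that modify collagen, 3 rose (Colgalt2, Ppib, P4ha2) and 4 fell (Fkbp14, Plod2, P3h4, P3h2). Serpinh1, the collagen chaperone HSP47, averaged 7.53 in Smn knockdown and 7.55 in empty vector arrays and was not called. Of 15 genes of procollagen export, processing and crosslinking, Mia3, which loads procollagen into transport carriers, rose 1.43-fold (adjusted p = 0.0201). Pcolce2, Adamts3, Sec23a and Sec24d fell, and Adamts3, a procollagen N-proteinase, fell 1.71-fold (adjusted p = 0.000107). Of 10 collagen receptors Lair1 rose and Ddr1, Adgrg1 and Mrc2 fell, and Ddr1, a receptor tyrosine kinase for collagen, was 1.59-fold lower (adjusted p = 0.00256). Lair1 is an inhibitory receptor of immune cells. Of the genes named from these lists, P4ha2, P3h4, P3h2, Pcolce2, Lair1, Mrc2, Thbs1, Ogn, Nid2, Lama1, Mmp13 and Mmp14 were above background in neither group.

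Of 16 basement membrane partners 6 fell and 0 rose, where 15.5% of all genes were called lower. The laminin chains Lamb1 and Lamc1 were 2.02-fold and 1.82-fold lower (adjusted p = 7.59e-05 and 0.00315), and Nid1, the laminin and collagen IV linker, 1.82-fold lower (adjusted p = 0.0156). Nid2, Dag1 and Lama1 also fell, while Hspg2 (perlecan) and Agrn (agrin) differed by 0.07 and -0.03 and were not called. Of 14 collagen-binding proteoglycans and fibril partners 4 fell (Thbs1, Fn1, Ogn, Fmod) and 0 rose, with Fn1, fibronectin, 2.52-fold lower (adjusted p = 0.00112). Of 13 collagen-degrading enzymes and their inhibitors 5 fell (Mmp2, Timp2, Timp3, Timp4, Mmp14) and Mmp13 rose. Of 10 genes of the TGF-beta axis, a main inducer of collagen genes in fibroblasts, 5 fell and 2 rose. Ccn2, a matricellular target, was at least 3.27-fold lower (adjusted p = 0.000881), Smad2 2.01-fold lower (adjusted p = 3.25e-05), Tgfb2 1.74-fold lower (adjusted p = 0.000274) and Tgfbr2 at least 2.12-fold higher (adjusted p = 0.000125). The medians of the 7 lists lay between -0.39 (TGF-beta axis) and -0.02 (modifying enzymes), with -0.02 over all genes.

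In axonal RNA 0 of 42 chains were called by limma in any of the 3 comparisons. When 100 of 18191 genes were given a known shift, the axonal fit of Smn knockdown against empty vector recovered 0% at 1 log2 unit. It recovered 27% at 2 log2 units, and the somatodendritic fit recovered 90% and 100%. A change of 1 or 2 log2 units could thus go uncalled in axonal RNA. Of all genes 0.176% were called between Smn knockdown and empty vector, 0.099% between Smn knockdown and wild-type, and 0% between empty vector and wild-type arrays. The lowest adjusted p of a chain was 0.0686 for Smn knockdown against empty vector, 0.0593 for Smn knockdown against wild-type and 1 for empty vector against wild-type. At an unadjusted p under 0.05 there were 8 chains higher and 0 lower in Smn knockdown against empty vector (10.9% and 7.37% of all genes), 8 higher and 0 lower against wild-type (12.9% and 8.03%), and 0 between empty vector and wild-type (3.31% in either direction). Arrays did not overlap for 8 chains higher and 0 lower in Smn knockdown against empty vector (13.3% and 8.43% of all genes), and for 10 higher and 1 lower against wild-type (18.8% and 9.96%). The 8 chains higher against empty vector at an unadjusted p were Col16a1, Col22a1, Col9a3, Col20a1, Col7a1, Col9a2, Col13a1 and Col9a1, all outside the fibrillar and basement membrane classes. The other Col9a1 probe set differed by -0.04.

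Col5a2 had axonal levels of 4.59, 5.19 and 10.23 in Smn knockdown arrays, 6.04, 11.79 and 12.51 in empty vector arrays and 12.71, 8.69 and 7.76 in wild-type arrays. Among all genes of an array its axonal reading stood between percentile 11.9 and 99.2, and the difference between Smn knockdown and empty vector (-3.44 ± 2.16, adjusted p = 0.445) was not called. Col1a2 had 6.16, 5.88 and 6.40 in Smn knockdown arrays, 6.39, 5.81 and 10.03 in empty vector arrays and 13.14, 6.14 and 6.30 in wild-type arrays. It exceeded background on 1 array in each control group and on 0 of 3 knockdown arrays. Col1a1, its partner chain, had 6.23, 6.14 and 5.55 in Smn knockdown arrays, 5.87, 7.93 and 8.68 in empty vector arrays and 8.51, 5.87 and 5.79 in wild-type arrays. Col4a1 followed the same arrays, with 5.11, 6.51 and 6.16 in Smn knockdown, 5.36, 7.38 and 10.27 in empty vector and 11.31, 7.19 and 7.65 in wild-type cultures. Col4a2 had 4.24, 5.28 and 4.55 in Smn knockdown arrays, 4.98, 6.11 and 8.46 in empty vector arrays and 10.47, 6.12 and 3.93 in wild-type arrays.

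Col4a5 had axonal levels of 3.73, 3.62 and 7.22 in Smn knockdown arrays, 4.4, 6.22 and 7.50 in empty vector arrays and 9.06, 5.50 and 3.88 in wild-type arrays. Col8a1 had 4.79, 5.49 and 7.75 in Smn knockdown arrays, 7.50, 8.42 and 9.47 in empty vector arrays and 9.04, 8.29 and 5.24 in wild-type arrays. It was above background on all 3 empty vector arrays and on only 1 of the knockdown arrays, yet its difference was not called (-2.45 ± 1.10, adjusted p = 0.287). In Smn knockdown the high readings came from replicate 3, which held 9.36 for Col11a1, against 5.08 and 4.73 on the other arrays, and 9.21 for Col5a1, against 6.66 and 6.95. On the same array the mean of the astrocyte and radial glia list was the highest of the group. Of its 10 markers 7 exceeded background there, against 5 and 6 on replicates 1 and 2. Slc1a3, an astrocyte glutamate transporter, read 9.51, against 5.69 and 5.30. Gfap, of the same list, read 4.82 there and was below background on all axonal arrays.

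Axonal wild-type replicate 1 gave the highest level of its group for 9 of 11 fibrillar and 5 of 6 basement membrane chains, and for 37.2% of all genes. Empty vector replicate 3 did so for 8 of 11 fibrillar and 4 of 6 basement membrane chains, and for 26.2% of all genes. Within the axonal groups fibrillar chains spanned a median of 0.75 log2 units in Smn knockdown, 2.81 in empty vector and 2.36 in wild-type arrays, against 0.94, 0.93 and 0.69 over all genes. Acta2 read 5.72, 7.00 and 7.01 in axonal Smn knockdown arrays, 5.93, 12.89 and 13.53 in empty vector arrays and 11.02, 8.85 and 7.40 in wild-type arrays. Acta2 exceeded background on 0 of 3 axonal Smn knockdown, 2 of 3 empty vector and 3 of 3 wild-type arrays. The fibroblast and meningeal list had 0 to 4 of 13 markers above background on an axonal array and averaged 5.83 to 6.00 in Smn knockdown, 5.68 to 5.90 in empty vector and, in wild-type arrays, 5.82 to 6.16. Postn was the only marker of this list above background on all 3 arrays of an axonal group, with 8.81, 7.43 and 7.46 in wild-type arrays. In axonal Smn knockdown and empty vector it exceeded background on 0 arrays. The pericyte and smooth muscle list had 2 to 6 of 12 markers above background and averaged 6.48 to 6.91 in Smn knockdown, 6.13 to 7.22 in empty vector and, in wild-type arrays, 6.19 to 6.71. The microglia list averaged 9.44, 7.02 and 6.79 in Smn knockdown, 6.00, 6.52 and 6.16 in empty vector and 10.31, 7.64 and 7.08 in wild-type arrays. Its highest reading came from replicate 1 in the Smn knockdown and wild-type groups and from replicate 2 in the empty vector group. The astrocyte and radial glia list averaged 7.66, 7.69 and 8.89 in Smn knockdown, 6.73, 7.92 and 7.51 in empty vector and 8.05, 9.44 and 6.96 in wild-type arrays. The part of other cells in these axonal readings was not tested.

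**Figure D5:**
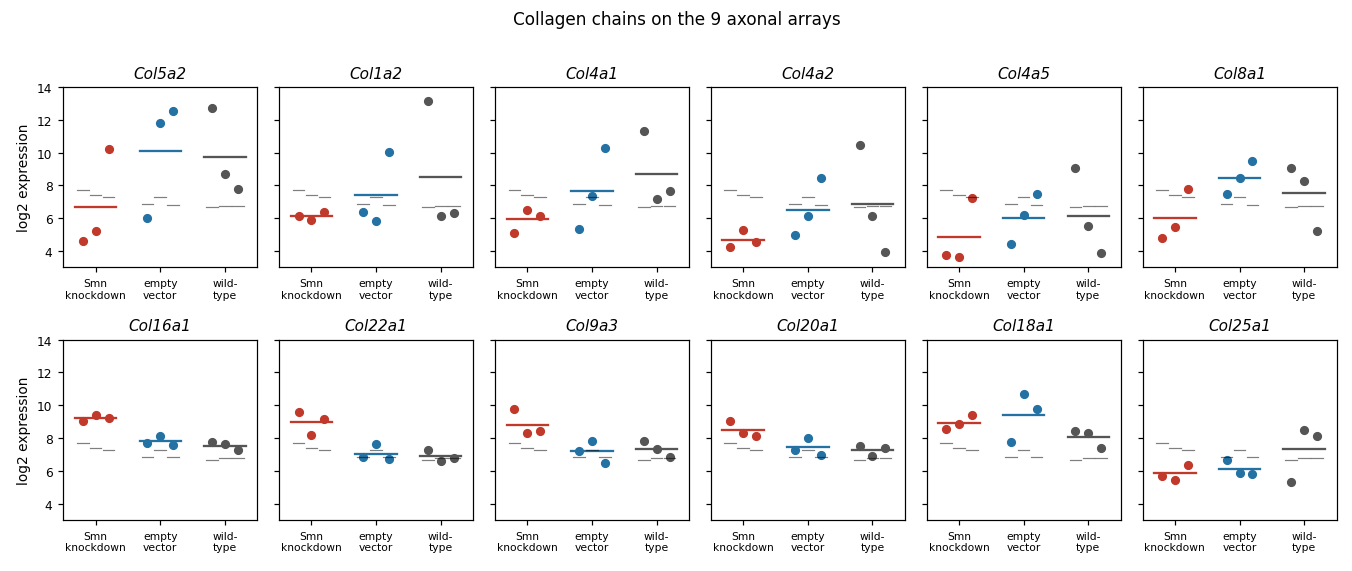
Log2 expression of 12 collagen chains on the 9 axonal arrays, with Smn knockdown left, empty vector in the middle and wild-type right. Points are arrays, coloured bars group means and grey ticks each array's background level. Col5a2, Col1a2, Col4a1, Col4a2, Col4a5 and Col8a1 scatter over several log2 units within a group, while Col16a1, Col22a1, Col9a3 and Col20a1 are higher on the 3 knockdown arrays than on the 6 control arrays.

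Several FACIT chains, by the probe set that stands for each, read higher on the axonal knockdown arrays without passing the test. Col16a1 had 9.06, 9.39 and 9.23 in Smn knockdown arrays, against 7.70, 8.10 and 7.56 in empty vector arrays and 7.74, 7.61 and 7.26 in wild-type arrays. All knockdown arrays lay above all control arrays, a difference of 1.44 ± 0.27 from empty vector (adjusted p = 0.0686) and 1.69 ± 0.27 from wild-type arrays (adjusted p = 0.0593), and neither passed. Col22a1, a FACIT collagen of tissue junctions such as muscle and tendon, had 9.59, 8.16 and 9.13 in Smn knockdown arrays, against 6.82, 7.63 and 6.71 in empty vector arrays and 7.30, 6.58 and 6.78 in wild-type arrays (adjusted p = 0.0877 against empty vector). Col9a3 had 9.75, 8.29 and 8.43 in Smn knockdown arrays, against 7.22, 7.84 and 6.50 in empty vector arrays and 7.79, 7.33 and 6.83 in wild-type arrays (adjusted p = 0.151 against empty vector). Col20a1 had 9.01, 8.29 and 8.12 in Smn knockdown arrays, against 7.30, 8.01 and 6.98 in empty vector arrays and 7.49, 6.91 and 7.37 in wild-type arrays (adjusted p = 0.196 against empty vector). These chains stand in the knockdown arrays beside a background level that was itself higher there (7.26 to 7.71, against 6.82 to 7.27 in empty vector arrays), and its part was not tested. Col9a2 and Col7a1, the chain of anchoring fibrils, were above background on all 3 axonal knockdown arrays as well (8.25, 7.48 and 7.66, and 8.01, 7.64 and 7.87). Other probe sets of Col9a3, Col20a1 and Col22a1, none above background on all 3 axonal knockdown arrays, differed less from empty vector. They differed by 0.01 and 0.26 for Col9a3, by -0.10, 0.10 and -0.80 for Col20a1, and by 0.50 and 1.34 for Col22a1. The rise of these 3 chains thus depends on the probe set, and Col16a1 had only 1.

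Col18a1 was above background on all axonal arrays, at 8.58, 8.83 and 9.43 in Smn knockdown, 7.76, 10.66 and 9.77 in empty vector and 8.45, 8.28 and 7.41 in wild-type cultures. The knockdown level lay within the spread of the empty vector arrays (-0.45 ± 0.69, adjusted p = 0.778). Col27a1 had 7.05, 8.68 and 8.95 in Smn knockdown arrays, 7.16, 8.67 and 7.35 in empty vector arrays and 7.87, 7.47 and 7.25 in wild-type arrays, again with overlap. Col25a1 was dim on all axonal Smn knockdown (5.71, 5.43 and 6.38) and empty vector (6.64, 5.88 and 5.80) arrays and reached 8.5 and 8.13 on 2 wild-type arrays, against 5.30 on the other. Its second probe set was above background in all 6 groups and averaged 8.87 in axonal Smn knockdown, 7.91 in empty vector and 7.51 in wild-type arrays, so its axonal direction depends on the probe set.

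The compartments were normalized apart, so levels across them are described by rank and not tested. The probe set that stands for Col25a1 held percentiles 78.1 to 88.9 among all genes on the somatodendritic arrays and 21 to 81.6 on the axonal arrays, but its second probe set was above background on all 18 arrays, so no order of the compartments is read from it. Col16a1 stood at 46.9 to 55.2 on the somatodendritic arrays, and at 87.9 to 89.7 on axonal Smn knockdown, 68.6 to 77.7 on axonal empty vector and 62.6 to 71.6 on axonal wild-type arrays. Whether the knockdown difference from empty vector itself differed between compartments was tested on all 18 arrays. This test shares 1 estimate of spread between the tight somatodendritic and the noisier axonal arrays, so it can understate the error of the axonal part. The axonal difference of Col16a1 did not pass when the axonal arrays were fitted apart. Of the 42 chains 5 were called, against 6.77% of all genes in either direction and 4.21% higher: Col16a1, Col22a1, Col11a1, Col9a3 and Col13a1, with an axonal difference above the somatodendritic one in each. By the probe set that stands for it, Col22a1 was above background on 0 arrays of either somatodendritic group and on 1 of 3 axonal empty vector arrays. Col13a1 was above it on none of the arrays compared, so the tested values of both rest on readings near or below background. Another Col22a1 probe set was above background on 2 of 3 empty vector arrays in each compartment, with a somatodendritic difference of -0.62. Only Col16a1 kept its call under all 14 alternatives (1.16 to 1.81), and its axonal and somatodendritic differences were 1.44 and -0.22. The other 4 calls were each lost in some settings with a single array left out. Only Col16a1 was called when replicate 2 or 3 of somatodendritic empty vector or Smn knockdown was left out. There were 2 calls without replicate 1 of either somatodendritic group. In all 6 of these settings 2.12% to 2.88% of all genes were called, against 6.77% with all arrays, so the losses are not particular to these chains. There were 3 calls without axonal empty vector replicate 1 or 3 (5.87% and 4.79% of all genes) and 8 without axonal Smn knockdown replicate 2 (12.9% of all genes).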

How the data were processed

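RNA of each compartment had been amplified linearly in 2 rounds, labelled with biotin and hybridised to Mouse430_2 arrays, per the labels' protocols. The deposited values are log2 expression values of 45101 probe sets on 18 arrays, with the normalization software not given in the sources used here. Sorted values nearly coincide among the 9 deposited arrays of a compartment and not between compartments, so the authors scaled these apart (largest sorted difference 0.0048 somatodendritic and 0.0125 axonal, medians 5.774 and 5.948). Of the probe sets 34958 named 1 gene, 932 several and 9211 none; 64 control probe sets and 11 with missing values were left out. The 42 chains had 82 probe sets. Group differences came from limma's lmFit and eBayes (version 3.58.1, R 4.3.3, tested on simulated data) on the 9 arrays of a compartment, with Benjamini-Hochberg adjustment over 18191 genes and a threshold of 0.05. A fold against a group not above background on all 3 arrays is a lower bound ("at least"), computed with each dim array at the higher of its background and its own value. The chains and lists were chosen with earlier results of these data known. Chains were described on every array when above background in a group or called in a comparison, and of each list up to 4 called genes with the lowest p, with further list members chosen after their values were seen. Some genes, among them Col6a6 and Col28a1, were not analysed here. Promoter sequences are RefSeq's (GRCm38.p6). Alternatives covered probe set choice, filter, centring, fit, background and single arrays. The number of arrays limits the precision.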

Additional observations from a re-analysis of the deposited data

Results flagged for a closer look

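The interaction test shared 1 estimate of spread between the compartments, which can understate the error of the noisier axonal part. The limma interaction of compartment with the knockdown, axonal difference minus somatodendritic difference, was called for 5 chains. It was 1.66 ± 0.26 (SE) for Col16a1 (adjusted p = 0.00495), 2.09 ± 0.47 for Col22a1 (adjusted p = 0.0200), 4.96 ± 1.28 for Col11a1 (adjusted p = 0.0345), 1.97 ± 0.53 for Col9a3 (adjusted p = 0.0408) and 1.07 ± 0.29 for Col13a1 (adjusted p = 0.0417). The axonal and somatodendritic differences behind them were 1.44 and -0.22 for Col16a1, 1.91 and -0.18 for Col22a1, 2.18 and -2.78 for Col11a1, 1.64 and -0.33 for Col9a3, and 1.03 and -0.03 for Col13a1. Col13a1, a membrane-spanning chain, was below background in all 6 groups. The probe set that stands for Col22a1 was above it on 0 arrays of either somatodendritic group and 1 of 3 axonal empty vector arrays. For Col11a1 the axonal part rests on Smn knockdown replicate 3 (9.36), since the other 2 knockdown arrays and the 3 empty vector arrays lay below background. On other probe sets the axonal differences were 0.50 and 1.34 for Col22a1, 0.69 for Col11a1, and 0.01 and 0.26 for Col9a3.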

How the results depend on the processing

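The falls of Col11a1, Col5a2, Col4a5, Col8a1, Col18a1 and Col27a1 in somatodendritic Smn knockdown against empty vector kept their call under 12 of 13 alternatives. They were lost in 1 fit to all 18 arrays, whose single estimate of spread also covers the noisier axonal arrays. That fit called 0 chains in somatodendritic Smn knockdown against empty vector, 0 against wild-type, and 8 in each of axonal Smn knockdown against empty vector and against wild-type, where it called 0.566%, 0.792%, 20.7% and 24.6% of all genes. With single arrays left out, somatodendritic Smn knockdown gave 8 to 10 chains against empty vector and 8 to 18 against wild-type, somatodendritic empty vector against wild-type 0 to 6, each axonal comparison 0 to 0, and the interaction 1 to 8. With genes above background only, 1 chain was called in axonal Smn knockdown against wild-type (2.79% of the genes tested). Each array minus its background level, chosen after seeing the data, gave 3 chains in the interaction (7.18% of all genes). Directions turned for 2 chains in somatodendritic Smn knockdown, neither called there. Against empty vector Col26a1 went to 0.04 with probe sets ending _s_at, _x_at or _a_at left out. Against wild-type Col14a1 went to -0.24 with the mean over probe sets. The cause of these changes was not tested. At the 90th and 99th percentiles of background, 27 and 6 chains passed in somatodendritic Smn knockdown, 27 at the 90th in somatodendritic empty vector, 27 and 10 in somatodendritic wild-type, 0 at the 99th in axonal Smn knockdown, 13 and 2 in axonal empty vector and 14 and 2 in axonal wild-type. Centring arrays on bright genes turned the split over all genes, somatodendritic Smn knockdown against empty vector, to 2812 higher and 2311 lower, against 2267 and 2821. With the title number as a replicate block, empty vector against wild-type gave 0 chains in both compartments, as without it. Correlations between arrays sharing a number ran from -0.193 to 0.227, 1 of 18 over 0.1, so the numbers were not read as pairs. Knockdown arrays share no number with the controls, so no block could be fitted there. Chains within about 1 log2 unit of background cannot show a fall of full size.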
